A study of Mus musculus with 26 samples.

Results

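The 9 genes described here, Oas1g, Ifi27, Ifit1, Ifit2, Ifit3, Irf7, Mx1, Rsad2 and Usp18, are classical targets of type I interferon, taken from 26670 genes measured on Agilent arrays of mouse liver cells. They were chosen by name, with results of these arrays already known, for a decline at day 14 of the diet, so their levels over time are given as a description without a test. All 15 non-control probes named for these genes were found on the array and all 15 passed the filter on dim probes, so all 9 genes were measured. The arrays held 7 groups: YFP-positive cells after 3 days (4 arrays), 7 days (3 arrays) and 14 days (2 arrays) of diet, YFP-negative cells after 3 days (3 arrays), 7 days (3 arrays) and 14 days (3 arrays), and day 0 cells (2 arrays). These 20 arrays belong to a series of 26 samples, and the other 6 samples were not analysed here.

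All mice, those of day 0 included, carried Foxl1-Cre and RosaYFP, alleles with which cells that switch on Cre from the Foxl1 sequences, and the descendants of those cells, keep the yellow fluorescent protein YFP. The mice were 6 to 10 weeks old. The diet contained DDC, an agent that blocks haem synthesis, injures bile ducts and provokes an expansion of duct-like cells around the portal tracts. YFP-positive and YFP-negative fractions were sorted from non-parenchymal liver cells negative for CD45, the surface protein of blood cells. The day 0 samples were non-parenchymal cells of mice on normal chow that were not sorted by YFP, so a comparison with day 0 sets a sorted fraction against an unsorted mixture. RNA was amplified before labelling. The labels give replicate numbers but do not state that the arrays came from separate mice, so errors and p-values measure the spread among these arrays, which may be partly technical.

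Type I interferons act through a receptor at the cell surface that activates the kinases Jak1 and Tyk2. These activate transcription factors that bind interferon-stimulated response elements in the promoters of target genes. The induced proteins degrade or block foreign RNA, strengthen the response (Irf7) or restrain it (Usp18). In the liver many cell types respond, macrophages, sinusoidal endothelium and bile duct cells among them.

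The probes of Ifi27 are shown because the deepest decline in the set was read by 2 of its 3 probes and not to the same depth by the third. The array calls all 3 Ifi27, a name that in human belongs to a small hydrophobic interferon-induced protein of mitochondria and the nuclear envelope. A_52_P90363 and A_52_P90364 carry a transcript accession that RefSeq now assigns to Ifi27l2a, a mouse relative of that gene, while A_51_P358233 carries only a cDNA clone. Capitals mark the 21-base run that the first 2 sequences share; the longest run either of them shares with the third is 7 bases. All are on the minus strand of mm9, at chr12:104693928-104693987 for the first, chr12:104680394-104680453 for the second and chr12:104681106-104681165 for the third.
A_51_P358233: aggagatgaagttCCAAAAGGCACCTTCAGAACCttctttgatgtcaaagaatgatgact
A_52_P90363: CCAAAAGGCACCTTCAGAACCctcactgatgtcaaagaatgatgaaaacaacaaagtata
A_52_P90364: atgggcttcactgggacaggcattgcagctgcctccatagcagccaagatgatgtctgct

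Promoter sequence is shown for the members whose start region held the core letters of an interferon-stimulated response element. RefSeq promoter windows on GRCm38.p6, from 250 bases before to 50 after the start, were held for 6 of the 9 genes, and GAAANNGAAA or its other strand TTTCNNTTTC, overlapping matches counted, was found in 4 of those 6. The same letters occurred in 1131 of 32851 promoter windows of the genome (3.44%), and at least 2 matches in 74 of them (0.225%). Among the other interferon-induced genes with a window, 13 of 29 held it. No match was found in the windows of Irf7 and Ifit2. The stretches below run 5′ to 3′ along each gene's strand with the matches in capitals, from chr5:120887596-120887675 for Oas1g, chr12:26456543-26456622 for Rsad2 (both minus strand), chr19:34583353-34583436 for Ifit3 and chr19:34640754-34640833 for Ifit1 (both plus strand). In Oas1g the capitals cover 2 overlapping matches, in Rsad2 1, and in Ifit3 and Ifit1 2 each. A match describes the sequence and is not evidence of binding.
Oas1g: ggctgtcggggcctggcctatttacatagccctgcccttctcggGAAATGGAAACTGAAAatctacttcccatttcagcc
Rsad2: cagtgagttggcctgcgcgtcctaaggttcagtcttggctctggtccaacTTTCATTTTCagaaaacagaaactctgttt
Ifit3: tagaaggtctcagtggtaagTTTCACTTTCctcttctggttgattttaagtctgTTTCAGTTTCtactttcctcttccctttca
Ifit1: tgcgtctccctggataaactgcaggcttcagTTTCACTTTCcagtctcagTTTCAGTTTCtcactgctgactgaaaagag

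Levels below are log2 background-corrected signals minus the 75th percentile of their array, so 0 marks a probe as bright as that percentile, and a level of one probe is never set against that of another. The 9 genes did not share one decline. Between day 3 and day 14 of the diet, Ifi27 and Mx1 were lower by more than 1 log2 unit in both fractions. Oas1g and Usp18 were lower by more than 1 unit in YFP-positive cells only. Ifit1 and Irf7 were so in YFP-negative cells only, at -1.07 and -1.11, which shrank to as little as -0.51 and -0.60 with 1 array left out. The YFP-positive means of Ifit2, Irf7 and Rsad2 were not lower at day 14. In YFP-positive cells the size for Mx1, Usp18 and Oas1g and the sign for Rsad2 and Ifit2 changed with single arrays or the background correction, as given with each gene. Only Ifi27 had its day 14 arrays below its day 3 arrays in both fractions. The name under which the set was chosen, a decline by day 14, therefore described some of its members and not all.

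**Figure D1:**
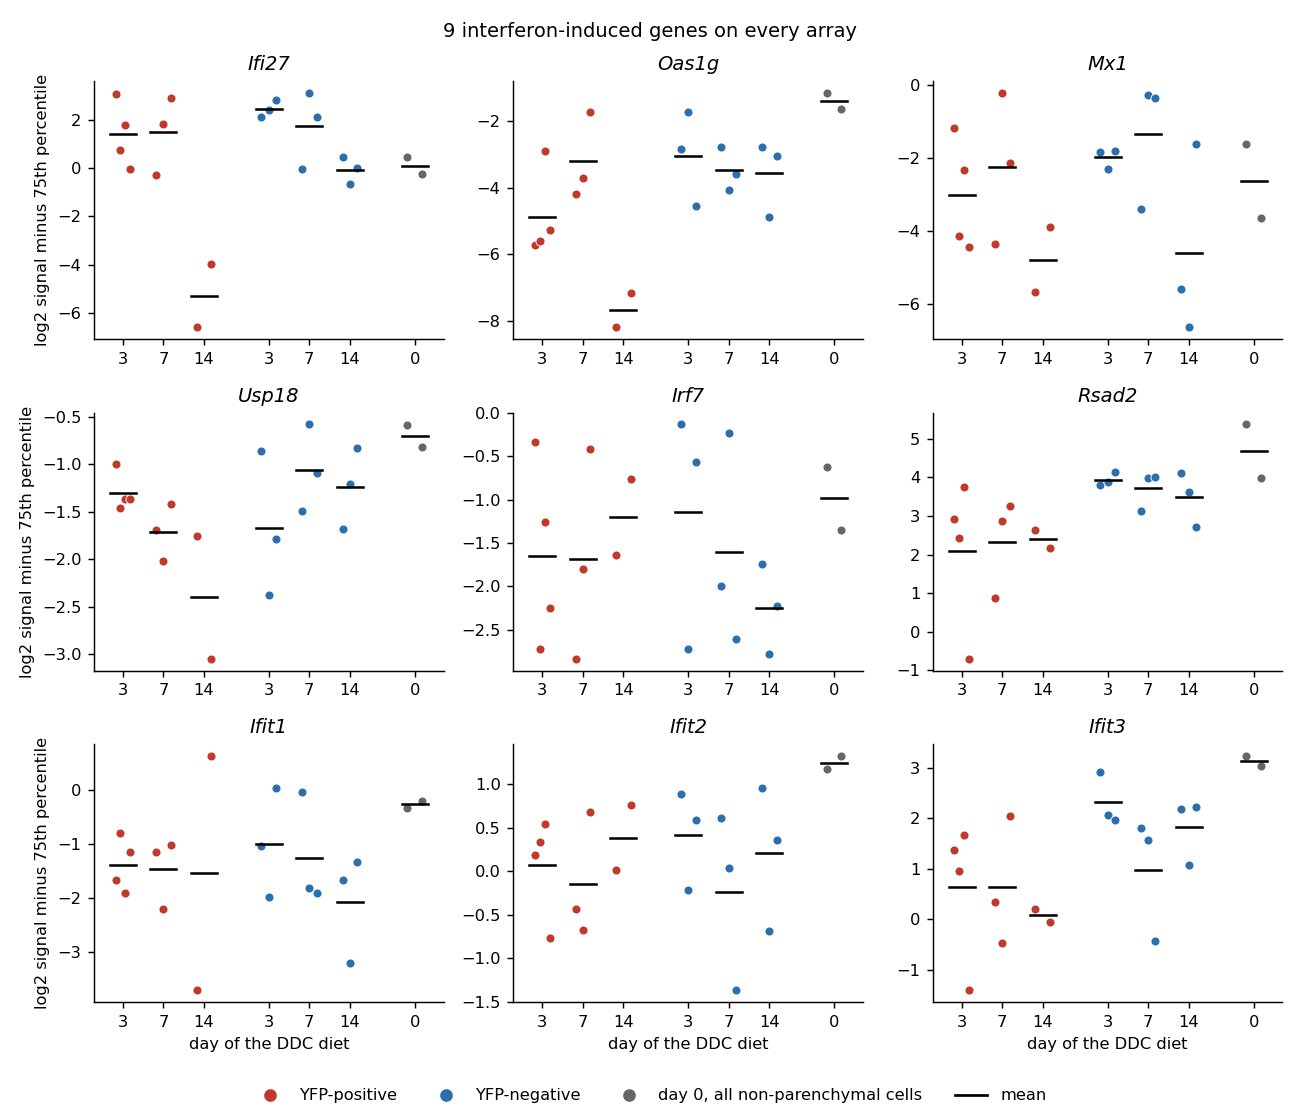
Level of each of the 9 genes on every array, as log2 signal minus the array's 75th percentile, by day of diet in YFP-positive (red) and YFP-negative (blue) cells and in day 0 cells (grey); points are arrays and bars are group means. In the Ifi27 panel the YFP-positive day 14 arrays, at -6.59 and -3.99, sit below all other arrays, and the same holds for Oas1g.

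Ifi27 carried the deepest decline. Its level on the probe used for the gene, the one with the highest mean signal, was 3.05, 0.74, 1.77 and -0.03 on the YFP-positive day 3 arrays, -0.30, 1.83 and 2.91 at day 7, and -6.59 and -3.99 at day 14. In YFP-negative cells it was 2.11, 2.41 and 2.81 at day 3, -0.03, 3.11 and 2.09 at day 7, and 0.43, -0.66 and -0.01 at day 14, and on the day 0 arrays 0.45 and -0.26. Both YFP-positive day 14 arrays lay below every other array, and the YFP-negative day 14 arrays lay below their day 3 arrays but among those of day 7 and day 0. The day 14 level minus the day 3 level was -6.67 ± 1.03 (SE of the fit, n = 2 and 4) in YFP-positive cells and -2.52 ± 0.97 (n = 3 each) in YFP-negative cells. Against day 7, the difference was -6.77 ± 1.08 in YFP-positive and -1.80 ± 0.97 in YFP-negative cells. By group mean the order, high to low, was YFP-negative day 3, YFP-negative day 7, YFP-positive day 7, YFP-positive day 3, day 0, YFP-negative day 14 and YFP-positive day 14, and only the last step was free of overlap between neighbouring groups.

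The 3 Ifi27 probes gave different depths. A_51_P358233, which shares the 21-base run, read -7.87 and -5.29 on the YFP-positive day 14 arrays, and its day 14 minus day 3 difference was -7.47 ± 1.01 in YFP-positive and -2.56 ± 0.95 in YFP-negative cells (SE). This probe was well above background on 19 of the 20 arrays, so the depth of its lowest readings may be uncertain. A_52_P90364 read -1.94 and -1.38 on the YFP-positive day 14 arrays, against 0.66, -0.67, -0.40 and 1.83 at day 3, a difference of -2.02 ± 0.75. In YFP-negative cells it read -1.13, -2.57 and -1.94 at day 14 and -0.56, -0.47 and 0.26 at day 3, a difference of -1.62 ± 0.71. On this probe the YFP-positive day 14 arrays overlapped the YFP-negative day 14 arrays and the day 0 arrays (-1.53 and -1.82). Averaged over its probes, the Ifi27 difference in YFP-positive cells was -5.39, and with another background correction (normexp) on the single probe it was -4.96. Which transcripts the probes read was not tested.

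**Figure D2:**
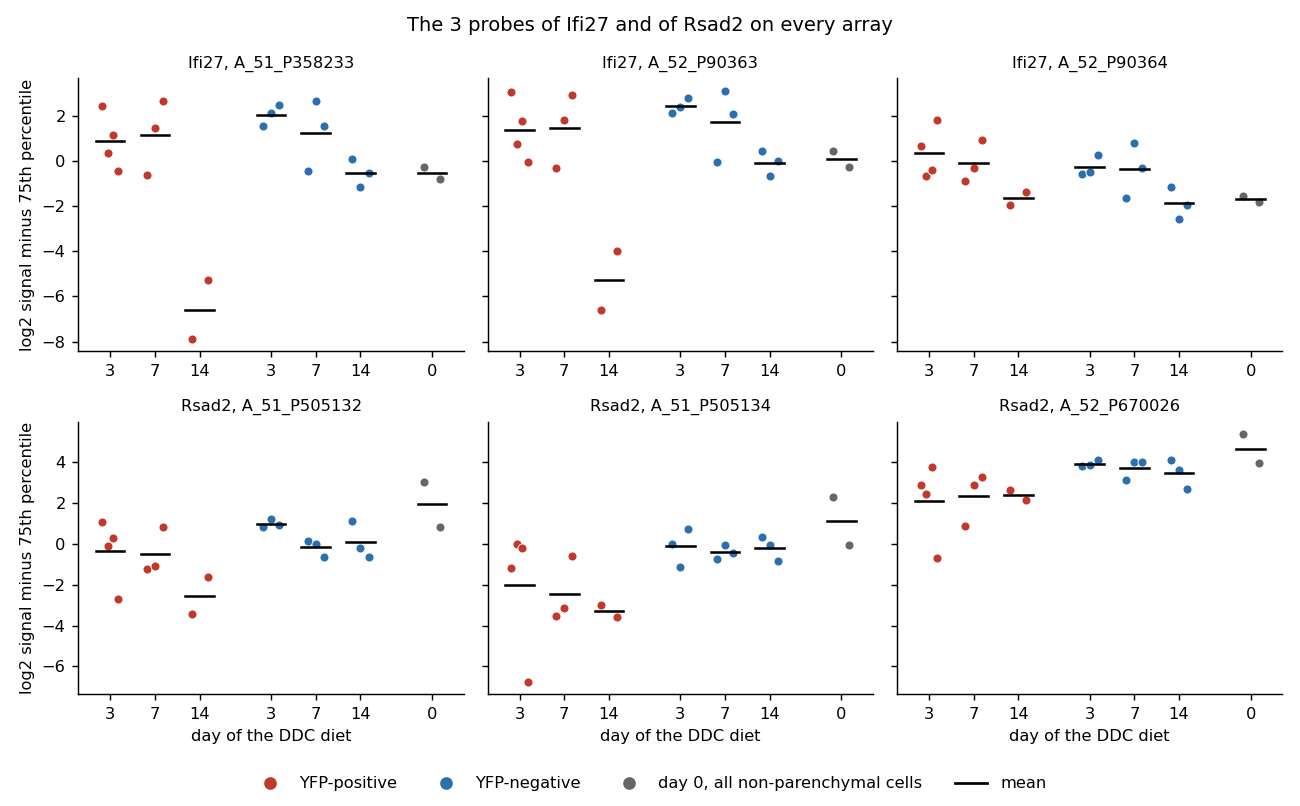
Level of the 3 Ifi27 probes and the 3 Rsad2 probes on every array, as log2 signal minus the array's 75th percentile, by day of diet; red is YFP-positive, blue YFP-negative, grey day 0, and bars are means. A_51_P358233 and A_52_P90363 lie below all other arrays at YFP-positive day 14, whereas A_52_P90364 reads -1.94 and -1.38 there, within the YFP-negative day 14 range.

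Oas1g encodes a 2′-5′ oligoadenylate synthetase of the family that makes the activator of RNase L. Its probe (chr5:121326151-121326169, mm9) read -5.72, -5.60, -2.92 and -5.29 at day 3, -4.19, -3.70 and -1.73 at day 7, and -8.19 and -7.15 at day 14 in YFP-positive cells. YFP-negative cells read -2.86, -1.73 and -4.55 at day 3, -2.77, -4.08 and -3.59 at day 7, and -2.79, -4.88 and -3.05 at day 14, and in day 0 cells -1.16 and -1.66. The YFP-positive day 14 arrays were the lowest of all 20 and the day 0 arrays the highest, while the YFP-negative groups overlapped one another. The value of -8.19 was not well above background, the only such array for this probe, so the depth there is uncertain. Day 14 minus day 3 was -2.79 ± 0.94 in YFP-positive and -0.53 ± 0.88 in YFP-negative cells (SE), and against day 7 it was -4.47 ± 0.99 in YFP-positive and -0.09 in YFP-negative cells. With normexp background correction the YFP-positive difference from day 3 shrank to -0.16. Oas1g belongs to a cluster of close relatives such as Oas1a, whose transcripts a probe may not fully separate.

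Mx1 encodes a dynamin-like GTPase that blocks influenza virus and relatives, and its gene is annotated as a transcribed pseudogene in the C57BL/6J reference. Its probe (chr16:97669616-97669675) read -1.18, -4.14, -2.34 and -4.43 at day 3, -4.37, -0.21 and -2.13 at day 7, and -5.68 and -3.89 at day 14 in YFP-positive cells. The YFP-negative arrays read -1.82, -2.29 and -1.81 at day 3, -3.39, -0.27 and -0.37 at day 7, and -5.60, -6.64 and -1.60 at day 14, and in day 0 cells -1.60 and -3.65. Arrays of one group differed by up to several log2 units, and 1 of the 3 YFP-negative day 14 arrays was as high as at day 3. The day 14 level minus that of day 3 was -1.76 ± 1.42 in YFP-positive and -2.64 ± 1.34 in YFP-negative cells (SE). Without 1 array it ran between -2.66 (without day 14 array 2) and -0.87 (without day 14 array 1) in YFP-positive cells, and between -4.14 (without day 14 array 3) and -1.62 in YFP-negative cells. A second probe, well above background on 16 of the 20 arrays, gave -3.63 ± 2.08 in YFP-positive and -2.50 ± 1.96 in YFP-negative cells.

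Usp18 encodes the protease that removes Isg15 from proteins and that dampens signalling at the interferon receptor. Its probe (chr6:121220513-121220572) read -0.999, -1.46, -1.37 and -1.36 at day 3, -1.69, -2.02 and -1.42 at day 7, and -1.75 and -3.05 at day 14 in YFP-positive cells. YFP-negative levels were -0.86, -2.37 and -1.79 at day 3, -1.49, -0.58 and -1.09 at day 7, and -1.67, -1.20 and -0.83 at day 14, and in day 0 cells -0.59 and -0.82. The YFP-positive day 14 arrays lay below the YFP-positive day 3 arrays, and no such shift was seen in YFP-negative cells. From day 3 to day 14 the difference was -1.10 ± 0.46 in YFP-positive and 0.44 ± 0.43 in YFP-negative cells (SE). In YFP-positive cells the difference was -0.45 with the lower and -1.75 with the higher day 14 array left out of the fit.

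Irf7, the transcription factor that amplifies the interferon response, showed no decline in YFP-positive cells. It read -0.34, -2.73, -1.26 and -2.25 at day 3, -2.84, -1.81 and -0.41 at day 7, and -1.64 and -0.76 at day 14 there. In YFP-negative cells it read -0.13, -2.73 and -0.57 at day 3, -1.99, -0.23 and -2.61 at day 7, and -1.74, -2.77 and -2.23 at day 14, and in day 0 cells -0.62 and -1.35. Each group overlapped its neighbours in the order of means. Day 14 minus day 3 was 0.45 ± 0.88 in YFP-positive and -1.11 ± 0.83 in YFP-negative cells (SE), each within 2 standard errors of 0.

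Rsad2 encodes viperin, a radical S-adenosylmethionine enzyme that makes a chain-terminating nucleotide. On the probe used for the gene (chr12:27127859-27127918) it read 2.91, 2.43, 3.75 and -0.70 at day 3, 0.87, 2.88 and 3.27 at day 7, and 2.64 and 2.17 at day 14 in YFP-positive cells. YFP-negative cells read 3.81, 3.87 and 4.13 at day 3, 3.14, 4.00 and 4.01 at day 7, and 4.11, 3.63 and 2.71 at day 14, and in day 0 cells 5.38 and 3.98. The YFP-positive day 14 arrays lay just below all 3 YFP-negative day 14 arrays. The day 14 level minus that of day 3 was 0.31 ± 0.95 in YFP-positive and -0.45 ± 0.90 in YFP-negative cells. Without YFP-positive day 3 array 4, the lowest at -0.70, the YFP-positive difference turned to -0.63, and with slide as a fixed block to -0.54. The other 2 Rsad2 probes gave -2.18 ± 0.94 (A_51_P505132) and -1.27 ± 1.45 (A_51_P505134) in YFP-positive cells, so the probes differ in sign. Averaged over its 3 probes, the gene's YFP-positive difference was -1.05. On A_51_P505132 the YFP-positive day 14 arrays read -3.42 and -1.63, and those of day 3 read 1.06, -0.08, 0.31 and -2.68.

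The Ifit genes encode tetratricopeptide repeat proteins, of which Ifit1 binds RNA lacking the host's cap methylation and Ifit2 binds RNA as well. Ifit1 (chr19:34723796-34723855) read -1.66, -0.80, -1.90 and -1.15 at day 3, -1.15, -2.21 and -1.01 at day 7, and -3.70 and 0.63 at day 14 in YFP-positive cells. Its YFP-negative levels were -1.03, -1.98 and 0.03 at day 3, -0.04, -1.81 and -1.90 at day 7, and -1.67, -3.20 and -1.33 at day 14, and its day 0 levels -0.34 and -0.20. The 2 YFP-positive day 14 arrays were the lowest and the highest of all 20, so Ifit1 at day 14 rests on which of them is taken. From day 3 to day 14 the difference was -0.16 ± 0.95 in YFP-positive cells, -2.32 without the higher and 2.01 without the lower day 14 array, and -1.07 ± 0.89 in YFP-negative cells.

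Ifit2 (chr19:34650244-34650303), an RNA-binding member of the family, read 0.18, 0.33, 0.54 and -0.76 at day 3, -0.43, -0.67 and 0.68 at day 7, and 0.01 and 0.75 at day 14 in YFP-positive cells. The YFP-negative arrays read 0.88, -0.22 and 0.59 at day 3, 0.61, 0.03 and -1.37 at day 7, and 0.95, -0.69 and 0.36 at day 14, and in day 0 cells 1.17 and 1.33. Both day 0 arrays were above all diet arrays, whose groups overlapped. Day 14 minus day 3 was 0.31 ± 0.61 in YFP-positive and -0.21 ± 0.58 in YFP-negative cells, and -0.06 in YFP-positive cells without day 14 array 2. A second Ifit2 probe, A_52_P542388 (chr19:34648307-34648366), read -0.21 and 0.53 on the YFP-positive day 14 arrays and 0.50, 0.32, 0.67 and -1.92 on those of day 3, where array 4 was the lowest.

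Ifit3 (chr19:34663105-34663164), whose probe may also read its near-identical neighbour Ifit3b, read 1.37, 0.96, 1.67 and -1.41 at day 3, 0.35, -0.46 and 2.05 at day 7, and 0.21 and -0.05 at day 14 in YFP-positive cells. YFP-negative levels were 2.91, 2.07 and 1.97 at day 3, 1.81, 1.56 and -0.43 at day 7, and 2.19, 1.08 and 2.22 at day 14, and in day 0 cells 3.24 and 3.04. At day 3 and at day 14 every YFP-positive array was below every YFP-negative array of that day, and at day 7 the fractions overlapped. Rsad2 showed the same at these days. At day 14 this held for 13.7% of all genes, and the share at day 3 was not computed. The day 14 level minus that of day 3 was -0.57 ± 0.85 in YFP-positive and -0.49 ± 0.80 in YFP-negative cells. Without YFP-positive day 3 array 4 the YFP-positive difference was -1.26.

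Across the set, 6 of 9 genes had a lower mean at day 14 than at day 3 in YFP-positive cells and 8 of 9 in YFP-negative cells. The median difference was -0.57 in YFP-positive cells, against -0.04 over all 26670 genes, and -0.53 in YFP-negative cells, against -0.06 over all genes. With both fractions averaged it was -0.53, against -0.06 over all genes. In these contrasts 0.0262% of all genes passed an adjusted p of 0.05 in YFP-positive cells, 0% in YFP-negative cells and 0.0075% for the mean of fractions, and from day 7 to day 14 0.0337% in YFP-positive and 0% in YFP-negative cells. In YFP-positive cells the day 14 arrays lay below all day 3 arrays for 3 of the 9 genes (Ifi27, Oas1g and Usp18), where 5.56% of all genes did so, and in YFP-negative cells for 1 (Ifi27), where 5.87% did. The YFP-positive day 14 arrays were below all other arrays of the study for 2 genes (Ifi27 and Oas1g), against 0.844% of all genes. Since the genes were chosen on this decline, nothing is read from these counts.

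**Figure D3:**
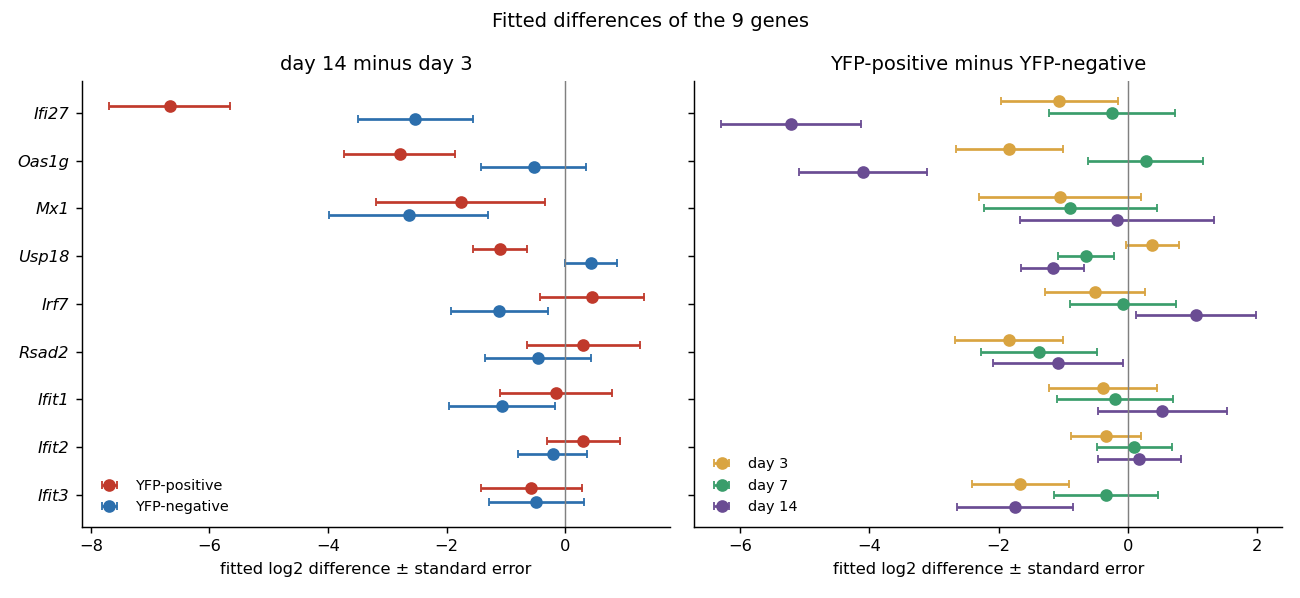
Differences of the 9 genes in log2 units with SE bars: left, day 14 minus day 3 in YFP-positive and YFP-negative cells; right, YFP-positive minus YFP-negative at days 3, 7 and 14. Ifi27 stands at -6.67 in YFP-positive cells on the left and at -5.21 at day 14 on the right, and most of the other estimates are within 2 SE of 0.

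Some arrays belonged to slides that held both days, so part of the decline could be read within a slide. Within slides, day 14 minus day 3 of Ifi27 was -9.64 and -4.73 in YFP-positive cells and -3.07 and -2.82 in YFP-negative cells, 1 pair of arrays each. Oas1g differed by -2.48 and -1.55 in YFP-positive cells and by -3.15 and 1.49 in YFP-negative cells. Mx1 differed by -4.50 and 0.25 in YFP-positive cells and by -4.35 and 0.21 in YFP-negative cells. Ifi27 alone of these 3 kept one direction in all 4 pairs. No slide held both fractions at day 14.

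The 2 fractions of the same day were compared to ask whether interferon-induced genes differed with the history of Foxl1-driven Cre. This contrast was not used to choose the genes. The decline for which they were chosen was seen on these same arrays, so values of this contrast, those of day 3 included, are not independent of that choice. This holds most for day 14 and the mean of days, and the p-values below carry that limit. None of the 9 genes passed an adjusted p of 0.05 at day 3, day 7, day 14 or over the mean of the 3 days in limma, where 0%, 0%, 0.0225% and 0.641% of all genes passed. Before adjustment, 3, 0, 3 and 4 of the 9 genes had p under 0.05, where 7.84%, 5.29%, 12.3% and 21.4% of all genes did. In sign, 8, 7, 6 and 8 of the 9 were lower in YFP-positive cells, with medians of -1.05, -0.25, -1.07 and -0.70, against 0.15, 0.00377, 0.13 and 0.06 over all genes. With slide as a fixed block the medians at day 3 and day 14 were near 0, at -0.06 and 0.04.

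At day 3, Oas1g, Rsad2 and Ifit3 were lower in YFP-positive cells by the largest amounts of the set. The differences were -1.84 ± 0.83 for Oas1g, -1.84 ± 0.84 for Rsad2 and -1.67 ± 0.75 for Ifit3 (SE, limma adjusted p = 0.600 each). At day 7 the differences ran between -1.38 ± 0.90 for Rsad2 and 0.27 for Oas1g (limma adjusted p = 1.0). Without YFP-positive day 3 array 4 the day 3 differences were -1.70 for Oas1g, -0.90 for Rsad2 and -0.98 for Ifit3, and with slide as a fixed block that of Rsad2 was -0.0011. None of the 9 passed the test on these 2 days, so the differences were not separated from the spread among arrays.

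At day 14, Ifi27 was at -5.29 ± 1.84 in YFP-positive cells and -0.08 ± 0.55 in YFP-negative cells (SD, n = 2 and 3), a difference of -5.21 ± 1.08 (SE, limma adjusted p = 0.116). Oas1g was at -7.67 ± 0.74 in YFP-positive and -3.57 ± 1.14 in YFP-negative cells, a difference of -4.10 ± 0.99 (adjusted p = 0.203). Usp18 differed by -1.16 ± 0.49 (adjusted p = 0.375), or by -0.51 and -1.81 without the lower and the higher YFP-positive array, and Ifit3 by -1.75 ± 0.90 (adjusted p = 0.442). For 5 of the 9 genes (Ifi27, Oas1g, Ifit3, Rsad2 and Usp18) both YFP-positive arrays were below all 3 YFP-negative arrays, as were 13.7% of all genes. Irf7, at 1.05 ± 0.92, and Ifit1, at 0.53, lay on the other side. Among single probes, the clone probe of Ifi27 differed by -6.06 ± 1.06 (adjusted p = 0.0701 over 39623 probes) and A_52_P90364 by 0.22 ± 0.79 (adjusted p = 0.938). The 2 other Rsad2 probes differed by -2.62 ± 0.99 and -3.11 ± 1.52 (adjusted p = 0.352 and 0.436), the main one by -1.07 ± 1.004. With normexp the Oas1g difference was -0.88.

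Over the mean of the 3 days, the differences were -2.17 ± 0.57 for Ifi27 (SE, limma adjusted p = 0.0730), -1.89 ± 0.52 for Oas1g (0.0807), -1.43 ± 0.53 for Rsad2 (0.146) and -1.25 ± 0.47 for Ifit3 (0.153). Ifi27 and Oas1g passed the threshold with quantile normalization, at adjusted p = 0.0463 and 0.0453, and also without 1 YFP-positive day 3 array, number 3, at adjusted p = 0.0498 and 0.0247. With slide as a fixed block the difference was -0.85 for Ifi27 and -0.22 for Rsad2, and with normexp it was -0.87 for Oas1g. Usp18 differed by -0.48 ± 0.26, Mx1 by -0.70 ± 0.79, and Irf7, Ifit1 and Ifit2 by 0.16, -0.02 and -0.02.

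Relative to day 0 cells, all 9 genes had lower means at day 14 in both fractions. The median difference was -1.11, -1.19 and -2.16 at days 3, 7 and 14 in YFP-positive cells, where the median over all genes was -0.19, -0.35 and -0.24. In YFP-negative cells it was -0.74, -0.96 and -1.26, where that over all genes was -0.41, -0.36 and -0.42. The share of all genes past the threshold against day 0 was 0.0562%, 0.0375% and 0.146% for YFP-positive and 0.0525%, 0.0525% and 0.0375% for YFP-negative cells at these days. Ifi27 and Mx1 did not follow the set at the earlier days. Ifi27 was higher than at day 0 by 1.29 ± 1.03 at day 3 and 1.39 ± 1.08 at day 7 in YFP-positive cells and lower by the day 14 difference of -5.38 ± 1.18. In YFP-negative cells its differences were 2.35 ± 1.08, 1.63 ± 1.08 and -0.17 ± 1.08. Mx1 differed from day 0 by -0.40, 0.39 and -2.16 in YFP-positive and by 0.65, 1.28 and -1.99 in YFP-negative cells. Ifit3 in YFP-positive cells stood at -2.49, -2.49 and -3.06 relative to day 0 at the 3 days, Rsad2 at -2.58, -2.34 and -2.27, and Oas1g at -3.47, -1.80 and -6.27. The YFP-positive and YFP-negative comparisons share the 2 day 0 arrays, and day 0 cells differ from the fractions in sorting as well as in diet.

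The authors' deposited table gives, per probe, a signed fold against day 0, negative where lower than day 0, and a false discovery rate in percent. By the authors' deposited table, 10 of the 15 probes of these genes, from 7 genes, had a rate under 5% in YFP-positive day 14 cells, all of them lower than day 0. In that comparison 16.3% of all rows of the authors' deposited table did, and 7.57% did and were lower. In YFP-negative day 3 cells 4 of the 15 did in the authors' deposited table, all of them higher, as did 3.37% of all rows (3.28% higher). In the authors' deposited table the other counts were 0 at YFP-positive day 3 (1.94% of rows), 2 at YFP-positive day 7 (10.6%), 1 lower and 1 higher, 1 at YFP-negative day 7 (3.62%), lower, and 0 at YFP-negative day 14 (1.64%). In the authors' deposited table the main Ifi27 probe has a fold of -15.2 in YFP-positive day 14 cells (rate 1.01%), the clone probe -27.0 (0.6%) and A_52_P90364 1.22 (37.3%), so the probes part there too. The 3 Rsad2 probes have -4.81 (1.96%) for the main one and -24.4 (1.38%) and -7.58 (3.13%) for the others in the authors' deposited table. Ifit3 has -7.09 (0.76%), Oas1g -11.8 (3.13%) and Usp18 -3.19 (4.43%) in the authors' deposited table. Mx1 and Ifit2 are among the 7 genes only through a second probe. Their main probes have -1.18 (53.8%) and -2.62 (8.42%) in the authors' deposited table. That table comes from the same series and is no second measurement, and its method was not given in the sources used here. Since the genes were chosen for a decline at day 14 in these data, nothing is read from these counts and rates.

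Other genes of the pathway were taken from 5 lists holding 97 measured genes outside the 9. None of the 97 passed the threshold in any of the 15 comparisons in limma. Over the mean of days between fractions, 1 passed with quantile normalization or with the stricter probe filter. Leaving out array 4 of the YFP-positive day 7 group gave 1, and leaving out array 3 of its day 3 group gave 3. In the YFP-positive against YFP-negative comparisons at day 3, day 7, day 14 and over the mean of days, 5, 0, 6 and 11 of them had an unadjusted p under 0.05, each a smaller share than the 7.84%, 5.29%, 12.3% and 21.4% of all genes. From day 3 to day 14 the 38 other interferon-induced genes had a median difference of -0.27 in YFP-positive cells, 30 of 38 below 0, and -0.24 in YFP-negative cells, 26 of 38 below 0. Isg15, the ubiquitin-like protein that Usp18 removes, differed by -1.41 ± 0.70 in YFP-positive and -1.42 ± 0.66 in YFP-negative cells (SE). Oas3 and Oas2, relatives of Oas1g, differed by -2.81 ± 2.03 and -2.39 ± 1.93 in YFP-positive cells.

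The medians of the remaining 4 lists ran between -0.33 and 0.13 in the same contrast. The 19 genes of interferon gamma response and antigen presentation had medians of -0.13 in both fractions, and their first gene Gbp2, a guanylate-binding GTPase, differed by 0.65 ± 0.58 in YFP-positive and 0.23 ± 0.55 in YFP-negative cells. The 15 nucleic acid sensors and adaptors had medians of -0.33 in YFP-positive and -0.28 in YFP-negative cells, with 0.17 ± 0.36 (YFP-positive) and -0.28 ± 0.33 (YFP-negative) for the RNA sensor Ddx58, now Rigi. The 13 interferons and receptors had medians of 0.13 in YFP-positive and -0.14 in YFP-negative cells, with -0.59 ± 1.05 (YFP-positive) and -0.42 ± 0.99 (YFP-negative) for Ifnb1, interferon beta. The 12 signal transduction genes had medians of 0.08 in YFP-positive and 0.03 in YFP-negative cells. None of these named genes passed the threshold.

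**Figure D4:**
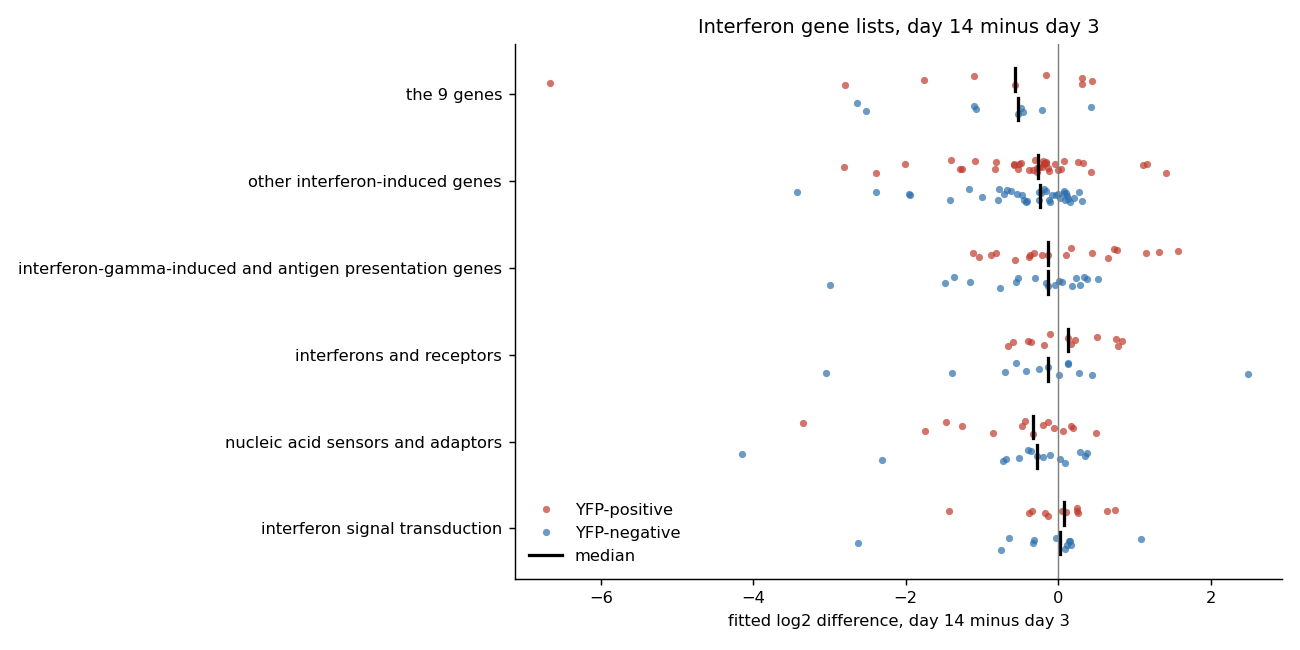
Day 14 minus day 3 in log2 units for the 9 genes and for each gene of 5 interferon lists, in YFP-positive and YFP-negative cells, with the median of each list as a bar. The 9 genes have medians of -0.57 in YFP-positive and -0.53 in YFP-negative cells, the 38 other interferon-induced genes -0.27 (YFP-positive) and -0.24 (YFP-negative), and the other lists lie between -0.33 and 0.13.

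Between fractions over the mean of days, 28 of the 38 other interferon-induced genes and 11 of the 12 signal transduction genes had lower means in YFP-positive cells, with list medians of -0.20 and -0.29 against 0.06 over all genes. The list gene with the smallest adjusted p, picked after its values were seen, was Ifitm1, a membrane protein that limits virus entry, at -1.16 ± 0.26 (SE, limma adjusted p = 0.0523). Stat2, a transcription factor of the interferon response, differed by -1.59 ± 0.43 at day 3 (adjusted p = 0.600), also picked after its values were seen. Interferons and receptors leaned the other way, with 9 of 13 higher in YFP-positive cells.

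Macrophage, plasmacytoid dendritic, lymphoid and neutrophil markers moved with day in these CD45-negative sorts, and their part in the lower interferon-induced levels was not tested. The mean level of 6 red blood cell (erythroid) markers averaged -0.52, -2.70 and -0.40 at days 3, 7 and 14 in YFP-positive cells. In YFP-negative cells it averaged 1.77, 0.67 and 1.01. In bulk RNA fewer cells of a type and less RNA per cell cannot be told apart. From day 3 to day 14, 14 of 15 macrophage markers were lower in each fraction, with medians of -1.74 in YFP-positive and -2.98 in YFP-negative cells, and 0 passed the threshold. The mean level of the 15 ranged, in YFP-positive cells, between -2.13 and 3.22 at day 3, 0.67 and 3.41 at day 7, and -1.36 and 0.24 at day 14. In YFP-negative cells it ranged between 2.48 and 3.05, -0.68 and 3.62, and -1.28 and 1.04 on those days, and in day 0 cells between -0.34 and 1.68. No marker of these lists was below background on every array.

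Macrophage markers averaged lowest on YFP-positive day 3 array 4, where Emr1 (now Adgre1) read -5.86 and Ptprc, which encodes CD45, -7.55. Macrophage markers were not alone there. Of all 20 arrays this one also had the lowest endothelial (0.52) and stellate (-3.07) means and the highest biliary mean (3.11). It had the fewest spots well above background as well (81.0%). That array also had the lowest Rsad2 and Ifit3 levels of all 20, -0.70 and -1.41, and without it the median day 14 minus day 3 difference of the 9 genes in YFP-positive cells was -1.12, with -7.14 for Ifi27. At day 7 the lowest macrophage mean was on array 1 in each fraction. The plasmacytoid dendritic, lymphoid, neutrophil and erythroid means were also lowest of their group on these arrays, and the biliary mean was highest. Ifi27, Mx1 and Rsad2 were lowest of their group there too, at -0.30, -4.37 and 0.87 in YFP-positive and -0.03, -3.39 and 3.14 in YFP-negative cells. Oas1g (-4.19) and Irf7 (-2.84) were also lowest on that YFP-positive array, and Usp18 (-1.49) on that YFP-negative array. Oas1g, Ifit1, Ifit2 and Ifit3 were highest of their group on that YFP-negative array, at -2.77, -0.04, 0.61 and 1.81. The remaining genes lay between the other arrays of their group. On the YFP-positive day 14 arrays Emr1 read -2.40 and 0.36 and Cd68 -2.96 and -2.20, against 0.01, -1.84 and 1.14 for Emr1 and -2.36, -3.86 and -0.97 for Cd68 on the YFP-negative ones.

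Markers of plasmacytoid dendritic cells, known producers of type I interferon, were lower at day 14 for 7 of 8 genes in YFP-positive and 8 of 8 in YFP-negative cells. Their mean level ranged between -2.77 and -2.41 on the YFP-positive day 14 arrays and between -2.09 and -0.59 on those of day 3, and between -3.82 and -2.34 at day 14 and -2.36 and -0.91 at day 3 in YFP-negative cells. Their defining marker Siglech was not well above background on both YFP-positive day 14 arrays and on 2 of the 3 YFP-negative ones. The 12 lymphoid markers averaged between -4.64 and -4.04 at day 14 and between -3.78 and -1.20 at day 3 in YFP-positive cells, and between -5.89 and -4.45 at day 14 and -3.18 and -1.31 at day 3 in YFP-negative cells. All 10 neutrophil markers were lower at day 14 in both fractions. Between fractions, all 12 biliary markers were higher in YFP-positive cells on each day, by medians of 2.98, 2.90 and 2.96 at days 3, 7 and 14, and 3 of the 12 passed the threshold over the mean of days. The 12 endothelial markers were all lower in YFP-positive cells at days 3 and 14. At day 3 their mean level ranged between 0.52 and 3.92 in YFP-positive and between 2.99 and 3.77 in YFP-negative cells. At day 14 it ranged between 1.88 and 3.21 in YFP-positive and between 3.05 and 3.84 in YFP-negative cells. At day 7 it averaged 2.21 in YFP-positive and 2.32 in YFP-negative cells. Of 12 stellate and myofibroblast markers 11 were lower in YFP-positive cells on each day, by list medians of -2.12, -2.41 and -4.23, and 6 passed the threshold over the mean of days. Their mean level averaged -0.09, -0.62 and -1.76 at days 3, 7 and 14 in YFP-positive cells and 1.96, 1.67 and 2.50 in YFP-negative cells. The part of cell makeup in the lower Ifi27, Oas1g, Rsad2 and Ifit3 levels of YFP-positive cells was not tested.

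**Figure D5:**
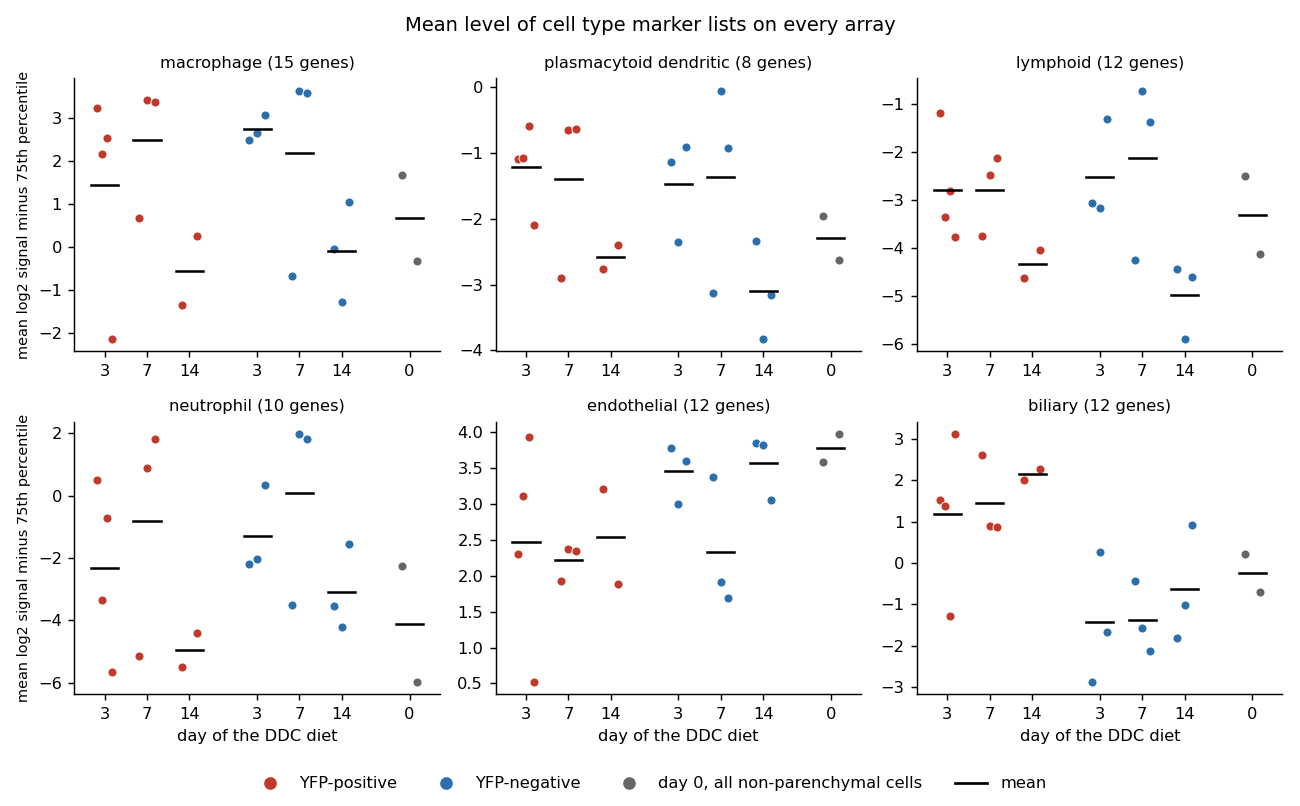
Mean level of 6 cell type marker lists on every array, as log2 signal minus the array's 75th percentile, by day of diet in YFP-positive (red), YFP-negative (blue) and day 0 (grey) cells; bars are group means. Macrophage, plasmacytoid dendritic, lymphoid and neutrophil means are lower at day 14 than at day 3 in both fractions, and biliary means are higher in YFP-positive cells.

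Over the 20 arrays the 9 genes were loosely related to one another. The 36 pairs had Pearson correlations between -0.11 (Ifit1 and Usp18) and 0.77 (Ifit2 and Ifit3), with a median of 0.32 and 32 above 0. Ifi27 correlated with Mx1 at 0.66 and with Oas1g at 0.59, and Ifit3 with Rsad2 at 0.72. Ifit3 was closest to the mean of the other 8 genes (r = 0.75) and Ifit1 farthest (0.30). The points share arrays, slides and cell makeup, so these values describe the arrays and carry no test.

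The genes outside the set whose level most resembled the mean of the 9 scaled genes over the 20 arrays included other interferon-induced genes. Trim12, now Trim12a, of a family of antiviral tripartite motif proteins, had the highest Pearson correlation at 0.881. EG667823, now Trim5, followed at 0.830. Rtp4, of the list of other interferon-induced genes, reached 0.823, Phf11, now Phf11a, 0.808, and I830012O16Rik, now Ifit3b, 0.796. The other 5 of the first 10 were a Crebbp clone (0.828), AK046335 (0.827), NAP007796-001 (0.808), EG382275, now Gm5168 (0.802), and ENSMUSG00000071543 (0.796). Of 96 interferon list genes with values on all arrays, 28 were among the first 1000 of 26365 genes, and their median correlation was 0.41, against 0.02 over all genes.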

How the data were processed

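RNA of 20 samples had been amplified and hybridised to 1-colour Agilent mouse arrays (design 014868). The deposited intensity values are Feature Extraction processed signals, background-subtracted by the authors per the file headers (version 10.5.1.1; the submitters' processing notes name 9.53). The deposited series table gives a score (a signed linear fold against day 0) and a false discovery rate in percent, made by a method not given in the sources used here. Here, log2 of the deposited intensity minus the array's 75th percentile was taken. Of 41174 probes from 43379 non-control spots, 39623 were well above background on at least 2 arrays and kept. Each array had 81.0% to 91.2% of spots well above background, and the number of arrays limits precision. Each of 26670 genes was read from its brightest probe. One limma model (limma 3.58.1, R 4.3.3) held all 7 groups with 13 residual degrees of freedom, and p-values were adjusted by Benjamini-Hochberg over all genes; 296 genes had a missing value on some array. The fit was tested on simulated data with independent noise and changes larger than the members' differences over the mean of days. That test does not cover differences as small as theirs, or noise shared between arrays.

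The 9 members and all gene lists were chosen with earlier results of these data known. Named genes were the members, the first gene of each interferon list, up to the first 2 of a marker list, and the 10 genes most correlated with the members; Oas2, Oas3, Ifitm1 and Stat2 were added after their values were seen. The first gene of 1 list is not reported here. Alternatives were normexp, quantile normalization, 2 other probe filters, slide and replicate blocks, the mean over probes, fewer groups in the fit, and each array left out.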

Additional observations from a re-analysis of the deposited data

Results flagged for a closer look

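In the 21 sets of 4 arrays that could be examined (a gene, an Ifi27 probe or a marker list in YFP-positive day 3 cells), 1 array stood apart from the other 3 by a gap of 0.846 of the whole range, above Dixon's 95% critical value. It was Oas1g on YFP-positive day 3 array 3, at -2.92, where the other arrays read -5.72, -5.60 and -5.29. Chance marks about 1 in 20 such sets, and the main Ifi27 probe entered both as the gene and as a probe. Without that array the YFP-positive minus YFP-negative difference of Oas1g over the mean of days was -2.11 (limma adjusted p = 0.0247), that of Ifi27 was -2.22 (adjusted p = 0.0498), and 1219 genes passed in all, against 171 with it.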

How the results depend on the processing

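The labels do not say whether same-numbered arrays of the 2 fractions came from the same mice. Such arrays correlated in their deviations from group means at -0.24 to 0.39 over 8 pairs, 1 of them above 0.1. With so few arrays per group these values cannot show whether the arrays were paired. Macrophage means of arrays 1, 3 and 4 at day 7 were -0.68, 3.62 and 3.58 in YFP-negative and 0.67, 3.41 and 3.36 in YFP-positive cells. At day 3 they were 2.48, 2.65 and 3.05 in YFP-negative and 3.22, 2.52 and -2.13 in YFP-positive cells. With replicate number as a block, 0 of the 9 genes passed between fractions, as without it, and the day 14 difference of Mx1 turned to 0.64.

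Of 870 values of results that answer a comparison, 860 stayed within the spread between arrays or 1.5 times the count, 433 of them counts of 0 to begin with, and 10 moved. Leaving out an array outside the groups compared cannot change a fitted difference. Many of these values, and of the single-gene values below, therefore could not move, and the numbers that stayed are no measure of robustness. Of the 860, 1 changed sign, the members' median between fractions at day 7, at 0.18 without YFP-positive day 7 array 1. Of the other values, for single genes and further counts, 1374 stayed, 184 moved, 33 changed sign and 4 passed the threshold. Quantile normalization, and the fit without YFP-positive day 3 array 3, raised the members past the threshold over the mean of days to 2 (0 to 2 over all arrays left out in turn), and quantile normalization turned Ifit1 there to 0.013. Normexp brought the members' median at YFP-positive day 14 against day 0 to -1.47 and Mx1 between fractions at day 14 to 0.049. With slide as a fixed block, the medians between fractions were -0.062 at day 3 and 0.035 at day 14, Mx1 was 1.08 and Rsad2 0.13 at day 14, and Mx1 was 0.50 over the mean of days. The cause was not tested.

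With single arrays left out, the median against day 0 ran between -2.97 (without day 0 array 2) and -1.57 (without day 0 array 1) at YFP-positive day 14, and between -1.10 and -0.26 (without day 0 array 1) at YFP-negative day 7. The YFP-positive median of day 14 against day 7 ran between -0.84 and 0.13 (without day 7 array 4). Between fractions at day 14, Ifit1 ran between -1.63 and 2.69, Ifit2 between -0.27 and 0.55 and Mx1 between -1.19 and 1.33. Over the mean of days, Ifit1 ran between -0.74 and 0.70, Ifit2 between -0.21 and 0.12 and Irf7 between -0.11 and 0.39. Over the mean of days the number of all genes past the threshold was 171, between 2 and 1084 under the settings listed and between 16 and 1219 with 1 array left out, so which genes pass there depends on single arrays. At day 14 between fractions that number was 6, and 0 to 6 and 0 to 61 in the same order. For YFP-positive day 14 it was 7 against day 3 (0 to 15 and 5 to 43) and 39 against day 0 (0 to 57 and 2 to 120).

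The YFP-positive day 14 group had 2 arrays and day 0 had 2, which limits precision most there, and 1 Oas1g value was not well above background. The clone probe of Ifi27 was well above background on 19 of the 20 arrays. The other 6 samples were not analysed here. Ifi27 and Rsad2 had probes that differed in depth or sign, so their values depend on the probe taken.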
